A study of Mus musculus with 17 samples.

Results

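The 26 genes described here make cholesterol in the mouse hepatocyte or regulate how much of it is made. They were taken by name for their known roles. All 26 were found among the 55536 gene identifiers of the RNA-seq tables, and all 26 were among the 14393 genes with enough counts to be tested. Of the group, 19 are enzymes of the pathway from acetyl-CoA to cholesterol, 5 are regulators and 2 are other genes that the same regulators control.

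Hepatocytes were taken by collagenase perfusion from the livers of 3-month-old C57BL/6J mice of the genotype the labels call ApcDHep. Apc, a part of the complex that marks β-catenin for destruction, is deleted in the hepatocytes of these mice. Every animal had carried AAV8, a viral vector that reaches hepatocytes, with SaCas9 constructs for 1 month and had been given tamoxifen (2 mg, 7 days), so both groups share the Apc deletion, the vector, the nuclease and the drug. The WRE-edited group (DLK1DWRE in the labels, 6 RNA-seq libraries) was cut where β-catenin binds DNA ahead of the DLK1/DIO3 locus, and the control group (ROSA26, 5 libraries) at the Rosa26 locus, a site used as a neutral target. The comparison asks whether cutting this site changes expression in hepatocytes with active β-catenin signalling. Library names carry a run. In r770 there are 3 libraries of each group, in r595 there are 1 WRE-edited and 2 Rosa26-edited libraries, and r711 has 2 WRE-edited libraries without controls. WRE-edited libraries 4 (r711) and 6 (r595) carry the same number in their names, and whether they are 1 animal is not stated. The labels do not say which libraries are separate animals, so p-values here measure the spread between libraries, which may in part be technical.

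Totals were 20727036 to 38935135 expected counts per library. The share of mitochondrial ribosomal RNA was 2.29% to 3.00% in the 3 libraries of r595 and 19.0% to 29.1% in the other 8, so values were compared within runs. The long non-coding RNA Rian, a transcript of the edited locus, was measured at 48.7 to 113.3 CPM (counts scaled to the library total) in WRE-edited and 170.6 to 405.1 CPM in Rosa26-edited libraries (log2 fold change -2.30 ± 0.26 SE, edgeR adjusted p = 0.0188). It was the 1 gene of the 14393 that passed the threshold of 0.05. Hepatocyte markers summed to between 41500 and 53300 CPM in every library. Marker sums of macrophages, endothelium, stellate cells and other cell types were at most 679.1 CPM. No marker was at 0 in all libraries. In bulk hepatocyte RNA, fewer cells of a type and less RNA per cell cannot be told apart.

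Hepatocytes build cholesterol from acetyl-CoA through mevalonate, farnesyl diphosphate, squalene and lanosterol, and most of the enzymes are switched on together by the transcription factor SREBP2, the product of Srebf2. The SREBP2 precursor sits in the endoplasmic reticulum bound to the escort protein Scap. When sterols are plentiful, Insig1 and Insig2 hold Scap there, and when sterols are low, Scap carries SREBP2 to the Golgi, where it is cut and released to the nucleus. Insig1 is itself an SREBP target and so gives feedback, while Nr1h3 encodes the oxysterol receptor LXRα, which acts when sterols are in excess.

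Sequences upstream of 3 of these genes are shown, chosen by the expression results. Hmgcs1 and Msmo1 followed each other most closely of the 25 pairs that hold Hmgcs1, and Insig1 had the smallest p-value of the 26 genes. Expression was not tested against these sequences. Each is the 250 bases before the RefSeq start site in build GRCm38.p6, 5′ to 3′ on the gene's strand. Capitals mark CCAAT on either strand (read ATTGG on the other) and TCACNCCAC, a form of the sterol regulatory element that SREBPs bind.
Hmgcs1, chr13:119690101-119690350, plus strand: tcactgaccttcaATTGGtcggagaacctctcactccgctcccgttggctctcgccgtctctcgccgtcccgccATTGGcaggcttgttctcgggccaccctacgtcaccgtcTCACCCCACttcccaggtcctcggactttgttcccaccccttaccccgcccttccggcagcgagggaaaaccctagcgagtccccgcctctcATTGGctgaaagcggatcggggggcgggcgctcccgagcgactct
Msmo1, chr8:64733579-64733828, minus strand: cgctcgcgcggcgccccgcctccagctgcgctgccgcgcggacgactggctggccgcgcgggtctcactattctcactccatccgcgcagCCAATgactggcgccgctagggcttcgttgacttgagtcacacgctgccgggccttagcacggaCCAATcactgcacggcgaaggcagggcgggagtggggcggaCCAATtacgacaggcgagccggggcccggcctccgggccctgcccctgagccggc
Insig1, chr5:28071162-28071411, plus strand: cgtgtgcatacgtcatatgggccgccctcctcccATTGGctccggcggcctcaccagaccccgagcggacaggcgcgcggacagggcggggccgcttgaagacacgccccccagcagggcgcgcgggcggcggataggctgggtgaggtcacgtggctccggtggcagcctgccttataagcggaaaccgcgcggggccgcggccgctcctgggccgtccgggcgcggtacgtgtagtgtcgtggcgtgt

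Hmgcs1 held 3 CCAAT boxes and 1 match to TCACNCCAC in these bases, Msmo1 held 3 CCAAT boxes, and Insig1 held 1. The RefSeq promoter table, which runs from 250 bases before to 50 after each start, had an entry for 22 of the 26 genes. CCAAT, which the factor NF-Y binds beside SREBP at many sterol genes, was present on either strand in 18 of the 22 (81.8%), against 42.3% of protein-coding genes. GGGCGG, the GC box of Sp1, was present in 18 of the 22 (81.8%), against 49.2% of protein-coding genes. TCACNCCAC was present in 1 of the 22, Hmgcs1, and in 1.41% of protein-coding genes. These are letter matches in a fixed window, and they say nothing of sites outside it.

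Levels of the 26 genes differed widely, here given per length as TPM, the length-scaled share of a library's transcripts in the deposited tables. Fdps, which makes farnesyl diphosphate, was highest with a median of 131.8 TPM over the 11 libraries (106.8 to 186.2), followed by Hmgcs1, the synthase that makes HMG-CoA (median 91.4 TPM, 64.2 to 148.9). Insig2 (median 82.4 TPM), Sc5d, a late desaturase (71.4 TPM), and Msmo1, a sterol oxidase (71.3 TPM), came next. Every Fdps value lay above those of Insig2 (at most 97.5 TPM) and Msmo1 (at most 98.0 TPM). The other ranges of these 5 genes overlapped. The lowest were Ggps1, which makes geranylgeranyl diphosphate (median 3.91 TPM, 2.17 to 5.09), Srebf2 (4.84 TPM, 3.65 to 9.70) and Mvd, which makes isopentenyl diphosphate (6.10 TPM, 2.53 to 11.04). Between libraries, the highest value was 1.55 times the lowest for Cyp51, the lanosterol demethylase, and 4.36 times the lowest for Mvd, with the other 24 genes between. TPM is a share of all RNA in a library, so the differing share of mitochondrial ribosomal RNA enters it, and folds below use CPM scaled with TMM factors instead.

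**Figure D1:**
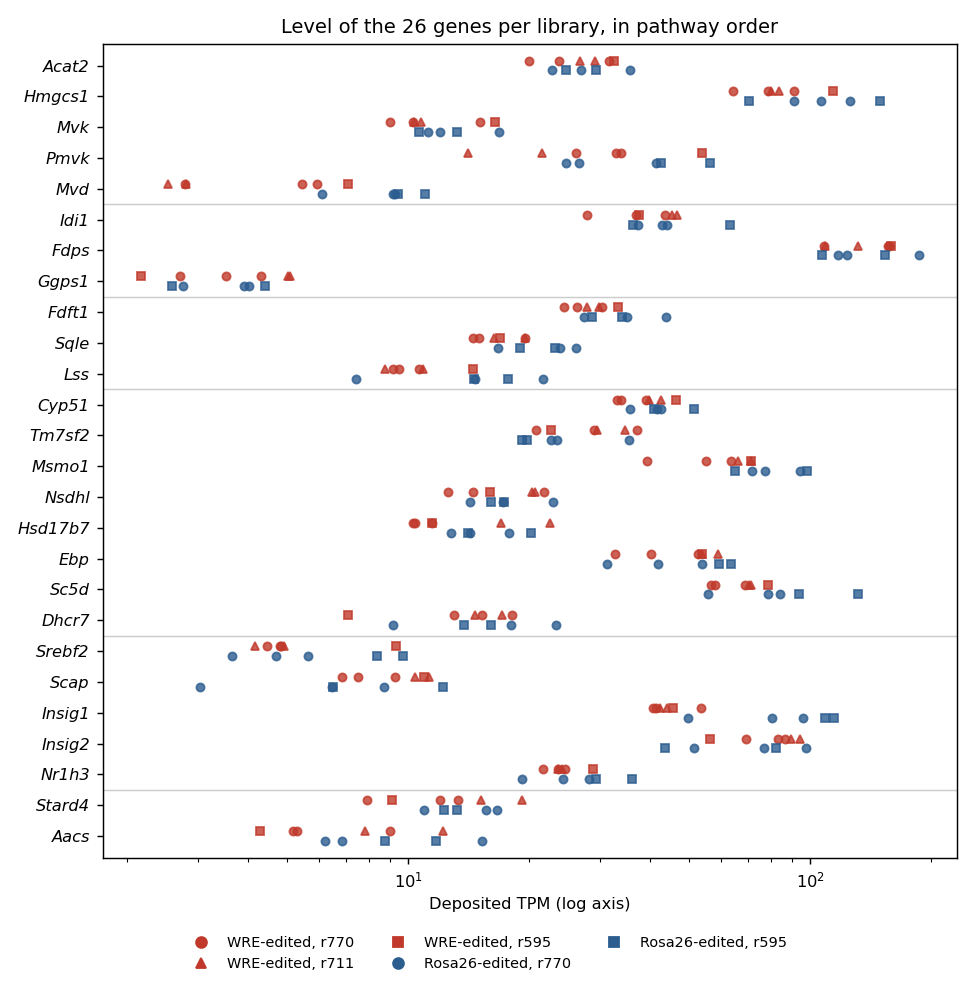
Level of each of the 26 genes in each of the 11 libraries, as deposited TPM on a log axis, with genes in pathway order and grey lines between roles; colour marks the group and the symbol marks the run. Fdps reached 186.2 TPM and Ggps1 stayed at or under 5.09 TPM, and the 2 groups interleaved for most genes, while 4 of the 5 Rosa26-edited values of Insig1 lay above all WRE-edited ones.

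Across all libraries, with the run in the fit, none of the 26 genes differed between WRE-edited and Rosa26-edited hepatocytes at an adjusted p under 0.05. Adjusted p-values ran from 0.384 to 0.986 (edgeR quasi-likelihood test, Benjamini-Hochberg over 14393 genes, of which 0.00695% passed), and DESeq2 called 0 of the 26 as well, against 0.577% of all genes. At an unadjusted p under 0.05 there were 2 of the 26, Insig1 and Scap, where 10.1% of all genes lay, and DESeq2 also gave 2, where it put 11.6% of all genes. Fold changes were below 0 for 14 genes (48.3% of all genes were) and above 0 for 12, from -0.63 to 0.46 on the log2 scale. Their median was -0.03, beside 0.01 for all genes tested. No gene of the 26 had groups that did not overlap over all libraries, as 0.375% of all genes had.

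**Figure D2:**
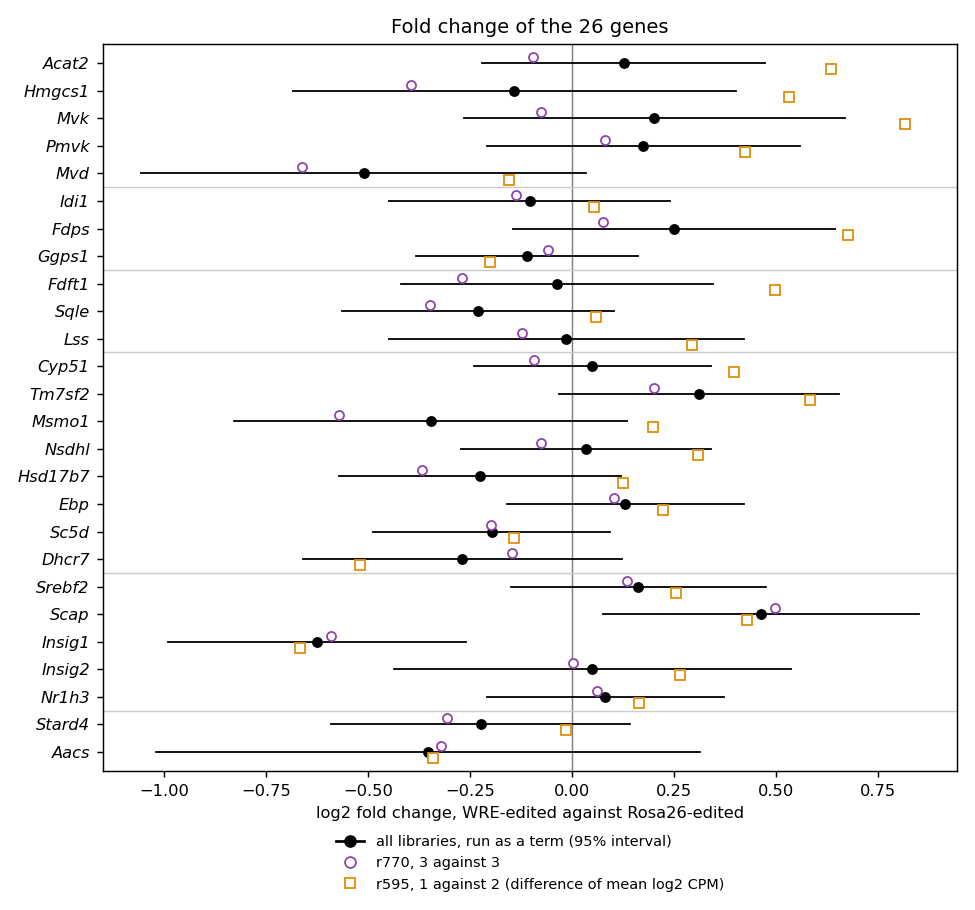
Log2 fold change of WRE-edited against Rosa26-edited hepatocytes for each gene: filled points with 95% intervals from the fit over all libraries, open circles from r770 (3 against 3) and open squares the difference of mean log2 CPM in r595 (1 against 2). The intervals of Insig1 (-0.99 to -0.26) and Scap (0.08 to 0.85) leave out 0 before adjustment; for most genes the square lies to the right of the circle.

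Insig1, the feedback brake on SREBP processing, showed the largest fold change of the 26. It was measured at 216.3, 139.0, 178.4, 123.0, 108.9 and 159.6 CPM in WRE-edited libraries 1 to 6, and at 342.0, 214.3, 254.1, 227.4 and 282.8 CPM in Rosa26-edited libraries 1 to 5. The groups overlapped at 1 point, WRE-edited 1 being just above Rosa26-edited 2. Means were 154.2 ± 39.3 CPM (SD, n = 6) and 264.1 ± 50.9 CPM (SD, n = 5). The fit put Insig1 at 1.54-fold lower in WRE-edited libraries (log2 fold change -0.63 ± 0.17 SE, edgeR unadjusted p = 0.00273, adjusted p = 0.384; DESeq2 adjusted p = 0.0558). The difference was alike in both runs that hold both groups. As a difference of mean log2 CPM it was -0.60 in r770 and -0.67 in r595. The fit within r770 gave -0.59 (edgeR unadjusted p = 0.0237, adjusted p = 0.998). In r595 WRE-edited 6 lay below both controls, a difference of 1 library against 2 that was not tested on its own. When genes with low counts were kept in the fit, Insig1 passed the threshold (log2 fold change -0.63, edgeR adjusted p = 0.0133), along with 1.62% of the 27704 genes then tested, and over its 20 alternatives the adjusted p ran from 0.0133 to 0.998. Insig1 lies inside the RefSeq span of the non-coding gene Gm35223, which was not analysed here, and no source used here says whether the counting took strand into account.

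Insig2, the sister gene of Insig1, whose liver transcript is known to rise in fasting rather than with SREBP2, was at 157.2, 155.7, 177.0, 174.0, 165.7 and 118.7 CPM in WRE-edited libraries and at 210.6, 181.5, 101.0, 70.2 and 139.1 CPM in Rosa26-edited ones. The control values of Insig2 thus spanned all of the WRE-edited values (log2 fold change 0.05 ± 0.22 SE, edgeR adjusted p = 0.946). Per length, Insig1 stood at 0.467 to 0.809 times Insig2 in the WRE-edited libraries and at 0.651 to 2.51 times in the Rosa26-edited libraries, so the more abundant of the pair was Insig2 in all 6 WRE-edited libraries and Insig1 in 3 of the 5 controls.

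Markers of other liver cells also lay lower in WRE-edited libraries in the same fit, and edgeR called 0 of them. All 7 stellate and fibroblast markers were below 0 (median log2 fold change -0.62, sums of 39.9 to 101.9 CPM in WRE-edited and 69.4 to 98.1 CPM in Rosa26-edited libraries). So were all 6 macrophage markers (median -0.42, sums of 177.8 to 280.8 CPM and 173.8 to 679.1 CPM) and all 6 endothelial markers (median -0.23, sums of 101.7 to 161.8 CPM and 104.8 to 166.9 CPM). The 8 hepatocyte markers were split 4 and 4 (median -0.03). Of the rarer cells, 3 of 3 tested neutrophil markers, 2 of 3 erythroid markers and the 1 tested lymphocyte marker were below 0 and the 1 tested cholangiocyte marker was above 0, and DESeq2 called 1 erythroid marker. The part of these cells in the fold changes of Insig1 and the other genes was not tested.

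Scap, the escort of SREBP, was the other gene at an unadjusted p under 0.05, in the opposite direction. It was at 34.5, 43.1, 47.8, 41.6, 35.6 and 49.9 CPM in WRE-edited libraries and at 33.4, 20.2, 36.0, 43.5 and 31.5 CPM in Rosa26-edited ones, so the groups overlapped and the lowest library was a control of r770. The fold change was 0.46 ± 0.18 SE on the log2 scale (edgeR unadjusted p = 0.0226, adjusted p = 0.441), and 0.50 in the fit within r770. The difference of mean log2 CPM was 0.52 in r770 and 0.43 in r595. Srebf2 itself was at 18.1 to 32.8 CPM in WRE-edited and 18.6 to 29.5 CPM in Rosa26-edited libraries (log2 fold change 0.16 ± 0.14 SE, 95% interval -0.15 to 0.48, edgeR adjusted p = 0.697). Nr1h3 was at 45.6 to 71.8 CPM and 50.8 to 69.7 CPM in the same order (log2 fold change 0.08 ± 0.13 SE, edgeR adjusted p = 0.839). Of the 5 regulators, 1 had a fold change below 0 and 4 above.

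An intron of Srebf2 holds miR-33, a microRNA known to repress cholesterol export genes. Its 5p arm is shown with the seed, bases 2 to 8, in capitals, at chr15:82198127-82198147 on the plus strand of GRCm38.p6.
mmu-miR-33-5p: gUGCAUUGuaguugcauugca
In the 6 miRNA-seq libraries, with totals of 1393509 to 2011383 counts, miR-33-5p had 12, 10 and 2 counts in the Rosa26-edited and 7, 6 and 0 counts in the WRE-edited libraries, where a count of 0 allows up to 3. It fell short of the count filter that 355 of the 476 miRNAs passed. A difference was not detectable at this depth: with the filter left off, the log2 fold change was -0.94 ± 0.86 SE (edgeR unadjusted p = 0.293). With 1 library left out it passed the filter in 4 of 6 fits, from -1.33 without WRE-edited 2 to -0.37 without WRE-edited 3 (edgeR unadjusted p 0.154 to 0.567).

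The 5 enzymes that lead from acetyl-CoA through mevalonate to isopentenyl diphosphate had fold changes from -0.51 to 0.20 on the log2 scale, 2 below 0 and 3 above, with 0 called (edgeR adjusted p 0.513 to 0.849). Hmgcs1 was at 458.8, 277.6, 434.2, 316.9, 294.1 and 521.8 CPM in WRE-edited and at 622.5, 490.8, 436.2, 242.8 and 537.0 CPM in Rosa26-edited libraries. Both groups thus held high and low libraries, and Rosa26-edited 4 was the lowest of all 11. The fold change of Hmgcs1 was -0.14 ± 0.25 SE on the log2 scale (95% interval -0.69 to 0.40, edgeR adjusted p = 0.849). Mvd was at 15.04, 6.51, 17.6, 5.95, 4.73 and 17.2 CPM in WRE-edited and at 24.4, 17.4, 20.3, 17.3 and 21.1 CPM in Rosa26-edited libraries (log2 fold change -0.51 ± 0.25 SE, 95% interval -1.06 to 0.04, edgeR adjusted p = 0.513). Its 3 lowest values were WRE-edited 2, 4 and 5. Without WRE-edited 2 the log2 fold change of Mvd was -0.28, and with the replicate number in the model in place of the run it was -1.20. The last of these, 4 and 5, are the r711 libraries, whose run and group cannot be told apart and which add only to the spread in the fit. Mvd also overlaps the non-coding gene Gm51557 by 3213 bases, and the part of that gene in its counts was not tested. Mvk and Pmvk, the kinases that phosphorylate mevalonate in turn, had log2 fold changes of 0.20 ± 0.21 SE and 0.17 ± 0.18 SE. For Mvk the ranges were 17.2 to 36.4 CPM in WRE-edited and 18.5 to 30.2 CPM in Rosa26-edited libraries. For Pmvk they were 17.0 to 70.1 CPM and 43.6 to 61.2 CPM. The WRE-edited libraries were the more spread in both, but they include r711, a run without controls. For Pmvk the libraries of r711 held the lowest values, 28.3 and 17.0 CPM in WRE-edited 4 and 5. Acat2, which joins acetyl-CoA units, stood at 0.13 ± 0.16 SE (63.1 to 95.1 CPM and 53.4 to 100.6 CPM). Acat2 is nearly identical to Acat3, which had a median of 5157 expected counts against 2042 for Acat2, so the split of reads between them is uncertain (log2 fold change of Acat3 0.08 ± 0.13 SE).

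**Figure D3:**
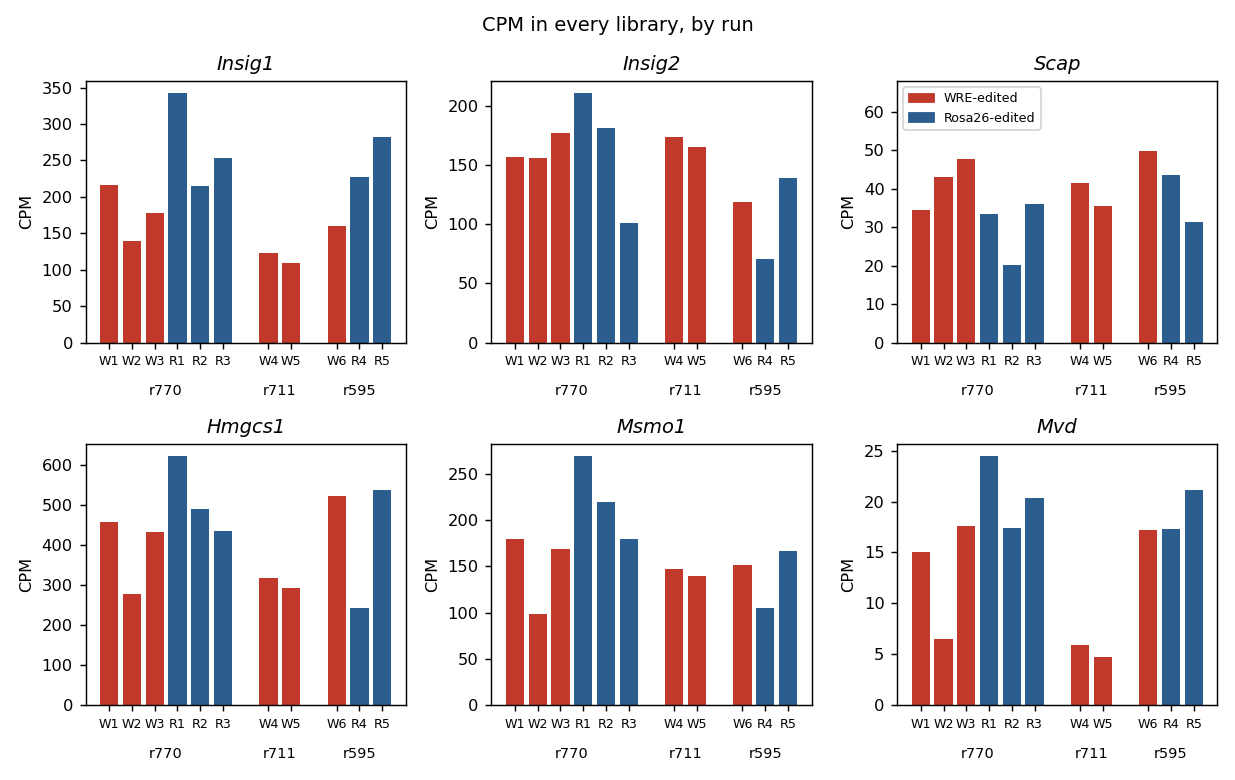
CPM in each library for Insig1, Insig2, Scap, Hmgcs1, Msmo1 and Mvd; bars are single libraries, W for WRE-edited and R for Rosa26-edited, set apart by run, with no control in r711. In r770 the 3 WRE-edited bars of Msmo1 (98.2 to 179.2 CPM) lie under the 3 control bars (179.3 to 268.8 CPM), and Rosa26-edited 4 is the lowest library for Hmgcs1.

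Among the isoprenoid enzymes, Idi1, which isomerises isopentenyl diphosphate, was at 128.5 to 168.8 CPM in WRE-edited and 110.9 to 194.4 CPM in Rosa26-edited libraries (log2 fold change -0.10 ± 0.16 SE). Fdps, at 138.1 to 311.5 CPM and 134.0 to 281.9 CPM in the same order, had 0.25 ± 0.18 SE. Ggps1, at 7.32 to 10.4 CPM and 8.10 to 10.1 CPM, had -0.11 ± 0.13 SE. Adjusted p-values of these 3 genes were 0.631 to 0.824 (edgeR), and the groups overlapped in each.

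The 3 enzymes that make squalene and close it into lanosterol all had values a little under 0: Fdft1 (squalene synthase) -0.04 ± 0.18 SE, Sqle (the epoxidase, a flux-controlling step) -0.23 ± 0.15 SE and Lss (the cyclase) -0.01 ± 0.20 SE on the log2 scale. For Sqle, the 95% interval ran from -0.57 to 0.10, at 56.2 to 87.4 CPM in WRE-edited and 56.3 to 102.8 CPM in Rosa26-edited libraries. Fdft1 was at 83.5 to 144.6 CPM and 85.6 to 152.4 CPM, and Lss at 31.0 to 55.9 CPM and 33.5 to 64.2 CPM, with adjusted p-values of the 3 genes from 0.602 to 0.986 (edgeR). Fdft1 overlaps Ctsb, a far more abundant gene (median 13066 against 3113 expected counts), by 774 bases, and reads there could have been counted for either.

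The 8 enzymes from lanosterol to cholesterol were split evenly, 4 below 0 and 4 above, with log2 fold changes from -0.35 to 0.31 and 0 called (edgeR adjusted p 0.525 to 0.940). The lowest was Msmo1, at 179.2, 98.2, 168.6, 147.3, 139.0 and 151.5 CPM in WRE-edited and 268.8, 219.6, 179.3, 104.6 and 166.7 CPM in Rosa26-edited libraries (log2 fold change -0.35 ± 0.22 SE, edgeR adjusted p = 0.591). Its groups overlapped through Rosa26-edited 4 and 5 of r595. Leaving out 1 library moved the log2 fold change of Msmo1 to between -0.58 (without WRE-edited 6) and -0.17 (without WRE-edited 2). The highest was Tm7sf2, a sterol reductase that acts straight after Cyp51, at 42.6 to 65.9 CPM in WRE-edited and 27.6 to 60.9 CPM in Rosa26-edited libraries (log2 fold change 0.31 ± 0.16 SE, edgeR adjusted p = 0.525). Hsd17b7 and Nsdhl, which with Msmo1 remove methyl groups from the sterol ring, had -0.23 ± 0.16 SE and 0.03 ± 0.14 SE on the log2 scale. Hsd17b7 was at 39.5 to 76.2 CPM in WRE-edited and 37.5 to 70.2 CPM in Rosa26-edited libraries, and Nsdhl at 43.0 to 63.6 CPM and 36.6 to 63.4 CPM. Cyp51 had a log2 fold change of 0.05 ± 0.13 SE (168.2 to 262.6 CPM and 172.8 to 250.5 CPM), and the sterol isomerase Ebp 0.13 ± 0.13 SE (79.6 to 118.3 CPM and 83.6 to 106.7 CPM). For both, the controls lay inside the range of the WRE-edited libraries, for Cyp51 only through WRE-edited 5 of r711 (168.2 CPM). Sc5d had -0.20 ± 0.13 SE (156.2 to 212.9 CPM and 182.3 to 280.7 CPM). Dhcr7, the reductase that yields cholesterol, had -0.27 ± 0.18 SE (24.6 to 44.7 CPM and 30.2 to 59.8 CPM). The 2 other SREBP-controlled genes, Stard4 (a carrier of cholesterol in the cytosol) and Aacs (acetoacetyl-CoA synthetase), had -0.22 ± 0.17 SE and -0.35 ± 0.30 SE (edgeR adjusted p = 0.647 and 0.691). Stard4 was at 48.4 to 86.0 CPM in WRE-edited and 52.5 to 99.3 CPM in Rosa26-edited libraries, and Aacs at 14.8 to 44.98 CPM and 18.5 to 52.2 CPM.

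Within r770, the run with 3 libraries of each group, 18 of the 26 genes had a fold change below 0 (47.9% of all genes did) and 8 above, with a median of -0.11 on the log2 scale beside 0.01 for all genes. None passed the threshold, and neither did any of the 14583 genes tested (0.0%); DESeq2 called 0 of the 26 and 0.0686% of all genes. At an unadjusted p under 0.05 were 2 of the 26, Insig1 and Msmo1, where 3.08% of all genes lay, and DESeq2 gave 3, where it put 3.48%. Msmo1 (log2 fold change -0.57, edgeR unadjusted p = 0.0423, adjusted p = 0.998) was also the 1 gene of the 26 whose groups did not overlap in r770. The gap was small, from 179.2 CPM in WRE-edited 1 to 179.3 CPM in Rosa26-edited 3, and 4.34% of all genes had WRE-edited values below all controls in this run. Without WRE-edited 1 the number at an unadjusted p under 0.05 was 7, and without WRE-edited 2 or Rosa26-edited 1 it was 0. The share of all genes in these fits is not given here, so these counts cannot be set against it. Of the 19 enzymes, 15 were below 0 in r770, with Mvd (-0.66), Msmo1 (-0.57) and Hmgcs1 (-0.40) lowest.

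Within r595, WRE-edited 6 was set against Rosa26-edited 4 and 5, a difference of 1 library against 2 that was not tested on its own. In it 19 of the 26 genes were above 0 and 7 below, with a median of 0.24 beside 0.04 for all genes, of which 53.1% were above 0. WRE-edited 6 was above both controls in 11 of the 26 (40.4% of all genes), below both in 4 (34.4%) and between them in 11. Mvk (0.82), Fdps (0.68), Acat2 (0.64), Tm7sf2 (0.58) and Hmgcs1 (0.53) showed the largest positive differences of mean log2 CPM. The 2 controls themselves lay far apart: Hmgcs1 was 242.8 CPM in Rosa26-edited 4 and 537.0 CPM in Rosa26-edited 5, and the mean of the 26 genes' log2 CPM relative to the run mean was -0.23 and 0.10 in them.

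The difference between the runs was tested itself, as an interaction over the 9 libraries of r770 and r595. The effect was higher in r595 for 21 of the 26 genes and lower for 5, with a median of 0.36 on the log2 scale, beside 0.02 for all genes, of which 51.5% were above 0. These signs all share WRE-edited 6, the 1 library of its group in r595, which the fit assumes to vary like the other groups. None of the 26 passed (0.0% of 14582 genes did), and DESeq2 called 0 of them and 0.048% of all genes. At an unadjusted p under 0.05 were Acat2 (0.74 ± 0.30 SE, edgeR unadjusted p = 0.0303, adjusted p = 0.728) and Fdft1 (0.77 ± 0.34 SE, edgeR unadjusted p = 0.0463, adjusted p = 0.758), 2 of 26 where 6.52% of all genes lay; DESeq2 also gave 2, where it put 6.98%. Hmgcs1 differed by 0.83 ± 0.52 SE. For Insig1 and Scap the difference between runs was near 0, -0.07 ± 0.39 SE and -0.07 ± 0.43 SE. WRE-edited 6 was not left out, as r595 would then hold no WRE-edited library. Among the libraries that were left out, the controls of r595 gave the lowest and highest median over the 26 genes. The median was 0.23 without Rosa26-edited 4 and 0.59 without Rosa26-edited 5.

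The genes were next compared with each other from library to library. Each gene's log2 CPM was centred on the mean of its run, and the 26 genes were compared with Hmgcs1, an enzyme at the entry to the pathway. Of the other 25 genes, 20 had a positive Pearson's r with Hmgcs1 over the 11 libraries, from -0.35 to 0.91 with a median of 0.39. Msmo1 passed the adjusted threshold (r = 0.915, exact permutation p = 0.000231 over 8640 rearrangements within runs, adjusted over 25 genes p = 0.00579; Spearman's rho = 0.927, exact permutation p = 0.000463, adjusted p = 0.0116). The next were Hsd17b7 (r = 0.856, rho = 0.773), Cyp51 (r = 0.824, rho = 0.764) and Sqle (r = 0.784, rho = 0.664), each with an adjusted exact permutation p = 0.0521 for r, just short of the threshold. Fdft1 had r = 0.777 (adjusted exact permutation p = 0.129), Mvd r = 0.683 (adjusted exact permutation p = 0.0596) and Idi1 r = 0.634 (adjusted exact permutation p = 0.343).

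Among the regulators, Insig2 had r = 0.673 (rho = 0.836, adjusted exact permutation p = 0.254 for r) and Insig1 r = 0.488 (rho = 0.464, adjusted exact permutation p = 0.492). Srebf2 had r = 0.014 (adjusted exact permutation p = 0.981) and Scap r = -0.346 (adjusted exact permutation p = 0.569). Whether the regulators' values differ from those of the enzymes was not tested.

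**Figure D4:**
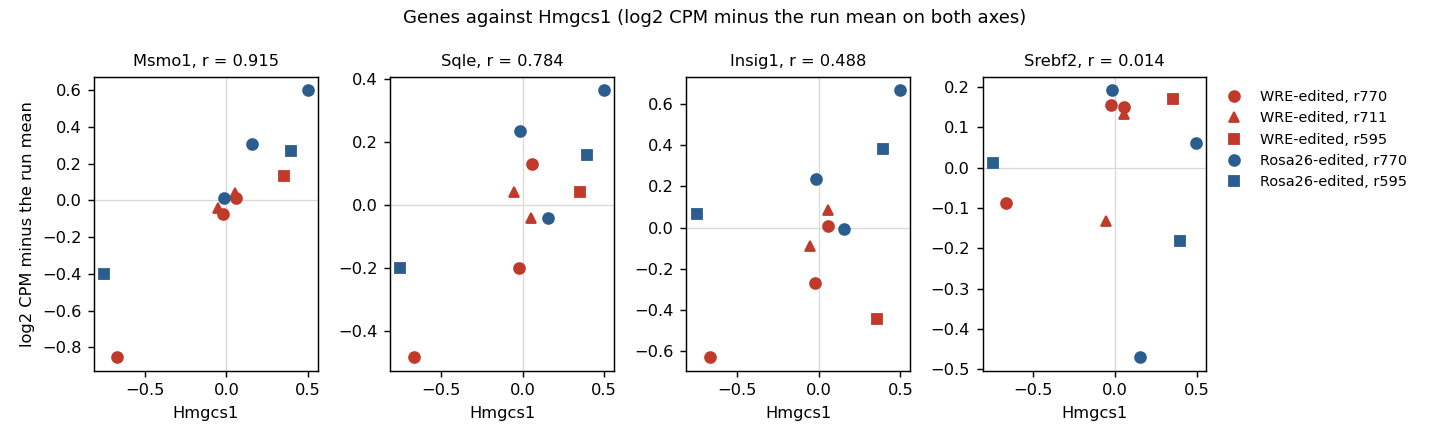
Log2 CPM of Msmo1, Sqle, Insig1 and Srebf2 against that of Hmgcs1, both as differences from the mean of the run; each point is a library, with colour for the group and symbol for the run. Msmo1 follows Hmgcs1 over the whole range (r = 0.915), with Rosa26-edited 4 and WRE-edited 2 at the lower left, while Srebf2 shows no trend (r = 0.014).

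The libraries farthest from the median of Hmgcs1 were Rosa26-edited 4 and WRE-edited 2, 1 of each group. Without them Msmo1 had r = 0.961, but with 480 rearrangements a single gene cannot reach an adjusted p below 0.0521, and its adjusted exact permutation p was 0.104. In r770 alone Msmo1 had r = 0.992 (adjusted exact permutation p = 0.0694). Centred on the group as well as the run, 4 genes passed. They were Msmo1 (r = 0.941, adjusted permutation p = 0.00579) and Mvd (r = 0.693, adjusted permutation p = 0.0275). The others were Hsd17b7 (r = 0.851, adjusted permutation p = 0.0449) and Insig1 (r = 0.755, adjusted permutation p = 0.0449). By Spearman's rho only Msmo1 and Insig1 of these 4 passed (adjusted permutation p = 0.0174 each), while Mvd (0.0540) and Hsd17b7 (0.0767) did not. With this centring WRE-edited 6, alone of its group in r595, carries no deviation of its own. Libraries were still rearranged across groups within runs, so the p-values of this setting are approximate. Taking Sqle as the gene to compare with, Hsd17b7 passed alone (r = 0.963, adjusted exact permutation p = 0.00289).

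Over all 325 pairs among the 26 genes the median r was 0.27, and 20.9% of pairs were above 0.6. Over the 171 pairs of enzymes the median was 0.37, with 28.7% above 0.6. The same quantities over all 103572028 pairs of tested genes, which were not matched to the 26 genes in level, were 0.00 and 8.64%. These are descriptions over 11 libraries that the pairs share, so pairs are not independent. The pairs with the highest r were Sqle with Hsd17b7 (0.963), Pmvk with Fdps (0.930), Hmgcs1 with Msmo1 (0.915) and Acat2 with Nsdhl (0.910). By eye, these belong to 2 blocks in the plot of correlations, one with Hmgcs1, Msmo1, Hsd17b7, Sqle and Mvd and the other with Acat2, Pmvk, Fdps, Tm7sf2 and Nsdhl, a grouping seen in these values and not tested. Ggps1, the branch enzyme toward protein prenylation, went the other way, with a median r of -0.33 with the other genes and the lowest pairs, Ggps1 with Srebf2 (-0.81) and with Scap (-0.73).

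**Figure D5:**
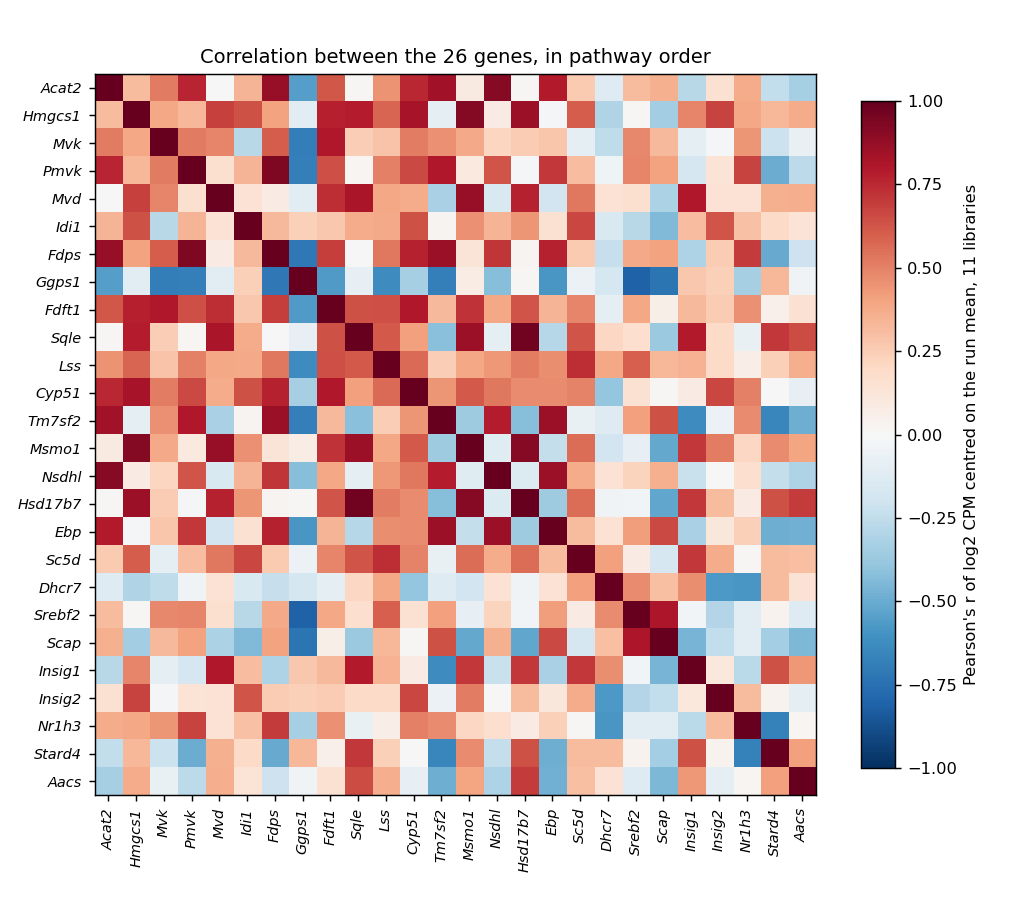
Pearson's r between each pair of the 26 genes over the 11 libraries, from log2 CPM centred on the run mean, with genes in pathway order and colour from blue (-1) to red (1). Red cells prevail among the enzymes (median r 0.37), and the row of Ggps1 is mostly blue (median r -0.33).

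As a whole the 26 genes were highest in Rosa26-edited 1 (mean of log2 CPM relative to the run mean 0.18), Rosa26-edited 3 (0.14) and WRE-edited 6 (0.13). They were lowest in Rosa26-edited 4 (-0.23) and WRE-edited 2 (-0.22). In r770 Rosa26-edited 1 and 3 were highest and WRE-edited 2 lowest, and in r595 WRE-edited 6 was highest and Rosa26-edited 4 lowest. The values are relative to each run's own mean, and the runs differ in their make-up of groups.

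The proteins that process or degrade SREBP and its partners gave no call: of 10 genes listed, all tested, 4 had a fold change below 0 and 6 above, with a median of 0.05 on the log2 scale. Mbtps1, the protease that makes the first cut in SREBP, had 0.20 ± 0.14 SE (edgeR adjusted p = 0.615), and Paqr3, which holds SREBP and its escort at the Golgi, had -0.28 ± 0.18 SE (edgeR adjusted p = 0.589). Of 10 genes of LXR signalling and sterol export, 5 were below 0 and 5 above (median 0.05, 0 called). Srebf1, the sister factor that drives fatty acid synthesis, had -0.34 ± 0.20 SE (edgeR adjusted p = 0.564), and Lpcat3, an LXR target that remodels phospholipids, had 0.24 ± 0.13 SE (edgeR adjusted p = 0.535).

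Among 12 genes that use the isoprenoid products of the pathway, 4 were below 0 and 8 above (median 0.03, 0 called). Pggt1b, a subunit of the geranylgeranyl transferase, was at 9.997 to 20.98 CPM in WRE-edited and 18.3 to 21.5 CPM in Rosa26-edited libraries (log2 fold change -0.55 ± 0.18 SE, edgeR unadjusted p = 0.0111, adjusted p = 0.434), and Fnta, the subunit that this transferase shares with the farnesyl transferase, had 0.19 ± 0.13 SE. Of 8 genes that supply acetyl-CoA or assist the enzymes, 1 was below 0 and 7 above (median 0.12, 0 called). Por, the reductase that feeds electrons to Cyp51 and Sqle, was at 168.9 to 459.0 CPM in WRE-edited and 99.9 to 282.0 CPM in Rosa26-edited libraries (log2 fold change 0.65 ± 0.25 SE, edgeR unadjusted p = 0.0217, adjusted p = 0.441). Sec14l2, next by unadjusted p in this list, had 0.27 ± 0.14 SE (edgeR adjusted p = 0.5305).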

How the data were processed

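Each RNA-seq library has a deposited table of expected counts by Ensembl gene. The submitters' processing notes name STAR 2.7.6a, RSEM 1.3.1 and GRCm38, and no source used here gives the strand setting or the annotation version. Those deposited tables also hold TPM, used here for levels between genes, and other values, each gene's effective length. miRNA values were deposited whole-number counts per mature miRNA. A deposited matrix of normalized values was not used.

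The 26 genes, the lists and the tests were chosen with earlier results of these data known. Every one of the 26 is named. Of each other pathway list, the genes named are those with the smallest unadjusted p. Some genes of this pathway are not reported here. Symbols were found for 55450 of 55536 identifiers, and coordinates and sequences came from RefSeq tables of GRCm38.p6.

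Expected counts were rounded. edgeR 4.0.16 in R 4.3.3 was used with filterByExpr (minimum count 10, minimum total 15), TMM factors and the robust form of the quasi-likelihood test, fitted on run and group, two-sided, with 7 residual degrees of freedom and Benjamini-Hochberg adjustment at 0.05. The 2 WRE-edited libraries of r711 add to the spread alone. The same test was run within r770 and for the interaction of run and group. Standard errors come from the quasi-likelihood statistic. DESeq2 1.42.0 was an alternative, as were other size factors, no filter, no run term, replicate blocks, effective length offsets, libraries without mitochondrial rRNA and each library left out. Correlations used log2 CPM (prior count 2) centred within runs, with exact two-sided permutation within runs. Every pair of libraries of a group differed beyond counting noise. The edgeR fit over all libraries was also tested on simulated counts.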

Additional observations from a re-analysis of the deposited data

Results flagged for a closer look

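Among the 52 sets of values looked at (26 genes in each group), 1 held a library apart from the rest: Insig2 in WRE-edited 6 was the lowest of its group at 119 CPM, where the other 5 WRE-edited libraries had 156 to 177 CPM. On the log2 scale the gap took up 0.68 of the range of the group. Chance alone sets about 1 in 20 such sets apart. WRE-edited 6 is the 1 WRE-edited library of r595, where the controls had 70.2 and 139.1 CPM, so within its run it lay between them.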

How the results depend on the processing

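Over all libraries, Insig1, Scap, Mvd, Msmo1, Sqle, Tm7sf2, Fdps, Ebp, Sc5d, Dhcr7 and Aacs had the same direction under the 20 alternatives. Of these alternatives 1 called a gene: with no filter on low counts 1 was called, Insig1 (-0.627, edgeR adjusted p = 0.0133, alternatives 0.0133 to 0.998), and the cause was not tested. The number at an unadjusted p under 0.05 was then 6 (8.53% of all genes), 6 with a replicate block beside the run (4.20%) and 4 with effective length offsets (8.71%); within r770 it was 4 with no filter (4.70%), and 0 to 7 with single libraries left out. In the interaction it ran from 0 to 5 with single libraries left out. It was 0 without WRE-edited 1 or Rosa26-edited 3 and 1 without WRE-edited 2 or Rosa26-edited 1. Shares of all genes are not given here for the fits with a library left out.

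Same-numbered libraries did not deviate together (correlations -0.09 to 0.178 over all libraries, -0.246 to 0.087 in r770). These values gave no sign of pairing, but so few libraries cannot exclude that the numbers pair them. The replicate block with the run reversed Acat2 (-0.117), Mvk (-0.146), Cyp51 (-0.104) and Nsdhl (-0.103). With the replicate block and no run term, reversals were Mvk (-0.152), Pmvk (-0.439), Ggps1 (0.074), Cyp51 (-0.118), Hsd17b7 (0.031), Srebf2 (-0.098), Nr1h3 (-0.101) and Stard4 (0.027). With no run term they were Pmvk (-0.170), Ggps1 (0.022), Cyp51 (-0.052), Srebf2 (-0.015) and Nr1h3 (-0.049). With WRE-edited 4 and 6 summed they were Mvk (-0.01), Pmvk (-0.20), Ggps1 (0.024), Cyp51 (-0.076), Srebf2 (-0.035) and Nr1h3 (-0.058). In r770, RLE size factors and DESeq2 each gave -0.006 for Insig2.

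Leaving out 1 library turned the sign of genes near 0. Over all libraries the ranges were -0.108 to 0.243 (Acat2), -0.405 to 0.023 (Hmgcs1), -0.086 to 0.382 (Mvk), -0.189 to 0.010 (Idi1), -0.281 to 0.095 (Fdft1), -0.151 to 0.109 (Lss), -0.104 to 0.108 (Cyp51), -0.090 to 0.140 (Nsdhl) and -0.095 to 0.205 (Insig2). Within r770 they were -0.197 to 0.020 (Acat2), -0.410 to 0.127 (Mvk), -0.059 to 0.213 (Pmvk), -0.097 to 0.201 (Fdps), -0.155 to 0.017 (Ggps1), -0.369 to 0.021 (Lss), -0.235 to 0.048 (Nsdhl), -0.382 to 0.058 (Dhcr7), -0.040 to 0.258 (Srebf2), -0.265 to 0.221 (Insig2) and -0.054 to 0.162 (Nr1h3). Over all libraries, genes that kept their sign but moved by over 1.5 times were Mvd (-0.67 to -0.28), Msmo1 (-0.582 to -0.167), Sqle (-0.359 to -0.124), Tm7sf2 (0.189 to 0.435), Fdps (0.064 to 0.364), Ebp (0.083 to 0.232), Sc5d (-0.263 to -0.121), Dhcr7 (-0.44 to -0.139), Aacs (-0.587 to -0.182), Pmvk (0.069 to 0.292), Ggps1 (-0.162 to -0.065), Hsd17b7 (-0.377 to -0.111), Srebf2 (0.06 to 0.262), Nr1h3 (0.014 to 0.152) and Stard4 (-0.351 to -0.087). The interaction of Insig1 ran from -0.282 to 0.088.

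The number of genes that passed with Hmgcs1 was 0 in r770 alone and 0 without the 2 farthest libraries. Centred on run and group it was 4 by approximate p-values, 2 of them also by rho. With RLE factors it was 1 by r and 2 by rho, Msmo1 and Insig2. Insig2 then had rho = 0.891 (adjusted exact permutation p = 0.0405, beside 0.118 with TMM factors). Srebf2 had r = -0.161 without the 2 farthest libraries, and -0.012 with RLE factors. miR-33-5p passed the filter in 4 of 6 fits with 1 library left out (-1.33 to -0.373) and in no other filtered fit, and its at most 12 counts limit what can be seen.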
